A study of Mus musculus with 8 samples.

Results

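The interleukin 1 family and inflammasome set holds 10 mouse genes, which are the ligand genes Il1a, Il1b and Il18, the antagonist gene Il1rn, the receptor genes Il1r1, Il1r2 and Il1rap, and the inflammasome genes Nlrp3, Casp1 and Pycard. Members were the rows of the deposited FPKM table (fragments per kilobase of transcript, scaled to the mapped fragments of the library) whose gene name field held one of these symbols, with a locus of at least 200 bp. Of the 10 genes, 9 had a row and passed the filter on low values, out of 13457 gene names tested, and Il1a had no row under its own name. RNA was sequenced from 8 libraries of Gr-1+ cells, 2 per group, each from a pool of 5 mice: bone marrow of nondiabetic Lepr +/- mice (HBM), bone marrow of diabetic Lepr -/- mice (DBM), day 3 skin wounds of the nondiabetic mice (HW) and day 3 skin wounds of the diabetic mice (DW). All mice were C57BL/6 animals of both sexes, aged 8 to 16 weeks, and all carried 2 excisional wounds of 8 mm diameter, so the marrow came from wounded animals as well and the nondiabetic controls carried a disrupted Lepr allele. Wounds were taken with a 2 mm border and dissociated with enzymes before cells were captured on magnetic beads with an antibody to Gr-1. That antibody binds Ly6G and Ly6C, so it takes neutrophils and Ly6C-bearing monocytes.

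Interleukin 1 alpha and beta signal through the receptor encoded by Il1r1 together with the accessory chain encoded by Il1rap. Il1rn encodes the receptor antagonist, which occupies the receptor without signalling, and Il1r2 encodes a decoy receptor that binds ligand but lacks a signalling domain. Interleukin 1 beta and interleukin 18 are made as inactive precursors and are cut by caspase-1, the product of Casp1, after the sensor NLRP3 and the adaptor ASC, encoded by Pycard, assemble into an inflammasome. RNA levels do not report that cleavage.

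The labelled cell type was read against marker lists, as FPKM summed over each list in each library. The 5 of 10 neutrophil markers with an estimate in every library summed to 21511 to 22495 in HBM and 17001 to 17334 in DBM, against 392 to 436 in HW and 260.2 to 260.3 in DW. The other 5 (S100a8, S100a9, Ltf, Ngp and Csf3r) had a failed estimate in at least 1 library, and S100a8 and S100a9, listed at 0 in marrow through failed estimates, stood at 994 to 1008 and 5864 to 6378 FPKM in HW and at 762 to 774 and 4956 to 4970 in DW. Csf3r shares its row with Mrps15. It was listed at 352 to 356 in HBM, 309 to 315 in DBM, 241 to 250 in HW and 94.3 to 96.3 in DW. Ltf and Ngp lay between 2.22 and 10.7 FPKM in the wound libraries. Most of the marrow sum was Camp, at 14003 to 14153 FPKM in HBM and 9783 to 10164 in DBM. In the wound Camp was at 6.705 to 8.381 in HW and 4.82 to 6.19 in DW. The wound level of neutrophil RNA is therefore not given by the sum. The 7 of 9 monocyte and macrophage markers with an estimate summed to 79.1 to 81.3 in HBM, 99.5 to 100.5 in DBM, 1066 to 1138 in HW and 1051 to 1068 in DW. Most of that wound sum was Cd14, and without it, a split made after its values were seen, the other 6 summed to 68.7 to 70.9 in HBM, 93.4 to 95.3 in DBM, 259 to 264 in HW and 317 to 318 in DW. Ccr2 of the same list was lower in the wound, at 26.0 to 27.3 FPKM in HBM, 20.7 to 20.9 in DBM, 14.4 to 14.7 in HW and 8.90 to 8.95 in DW. Wound libraries also held more RNA of other skin cells: the 10 keratinocyte markers summed to 26.9 to 30.6 in HBM, 22.1 to 24.8 in DBM, 297 to 313 in HW and 709 to 728 in DW. In the marrow the keratinocyte marker Krt1 was listed at 0 in all 4 libraries. The 6 of 7 fibroblast markers with an estimate summed to 0.763 to 8.13 in marrow, 382 to 386 in HW and 259 to 278 in DW, and the 5 dendritic cell markers to 27.2 to 30.5 in marrow, 318 to 343 in HW and 120.0 to 120.4 in DW. Each of these sums separated marrow from wound. In wounds the diabetic and nondiabetic libraries separated in all of them but the full monocyte and macrophage sum, and in marrow they separated in all of them. Their part in the results on the members was not tested. In bulk samples, fewer cells of a type and less RNA per cell cannot be told apart.

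Several member rows do not cover just their own gene, by the mm9 coordinates of the table and the matching gene annotation. The Il1b row spans chr2:129186950-129236226, and the annotated gene lies inside it at chr2:129190306-129196875 on the minus strand, where the antisense gene Gm14047 overlaps it. Whether fragments were counted by strand is not given in the sources used here, so reads of Il1b and Gm14047 cannot be told apart where they overlap. The Il1rn row with the highest level is a locus of 662 bp at chr2:24192262-24192923 that holds 140 of the gene's 3207 annotated exonic bases, the first exon of 1 of 4 coding transcripts, and the 3 other Il1rn rows stayed at or under 1.33 FPKM. The Il1rap row is a locus of 663 bp at chr16:26724429-26725091 and covers 5.8% of the gene's annotated exonic bases, inside the 3′ UTR of a coding transcript. Such short loci were common, since 1748 of 12840 tested names matched to the annotation had a listed locus covering under 10% of their exonic bases. Il18 shared its row, chr9:50362948-50389974, with Bco2 and Tex12, so its value is that of the joint locus. Il1r1 (chr1:40281918-40373043), Il1r2 (chr1:40141007-40182084), Nlrp3 (chr11:59355016-59381966), Casp1 (chr9:5298569-5307295) and Pycard (chr7:135133152-135137417) had rows of their own.

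The promoters of 4 members are shown because their RNA rose most on the log2(FPKM + 1) scale from marrow to wound (Il1b, Il1rn and Nlrp3) or, like that of Pycard, fell (Casp1). Each is the 250 bases before a RefSeq start (GRCm38.p6), 5′ to 3′ on the gene's strand, placed on mm9 by an exact match. Capitals mark every match, on either strand, to 5 motifs: a kappaB site, AP-1 (TGANTCA), C/EBP (TTNNGCAA), PU.1 (GAGGAA) and TATAAA.
Il1b, chr2:129196876-129197125, minus strand: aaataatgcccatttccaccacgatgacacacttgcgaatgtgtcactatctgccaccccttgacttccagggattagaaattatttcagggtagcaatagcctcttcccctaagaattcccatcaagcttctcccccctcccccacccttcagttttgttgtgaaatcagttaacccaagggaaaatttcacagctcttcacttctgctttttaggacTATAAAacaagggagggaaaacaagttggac
Il1rn, chr2:24192130-24192379, plus strand: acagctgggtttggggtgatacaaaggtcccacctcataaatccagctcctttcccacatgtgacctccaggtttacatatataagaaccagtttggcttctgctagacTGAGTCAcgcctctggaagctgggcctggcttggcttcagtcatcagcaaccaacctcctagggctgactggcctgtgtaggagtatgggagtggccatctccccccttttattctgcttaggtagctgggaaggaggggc
Nlrp3, chr11:59354821-59355070, plus strand: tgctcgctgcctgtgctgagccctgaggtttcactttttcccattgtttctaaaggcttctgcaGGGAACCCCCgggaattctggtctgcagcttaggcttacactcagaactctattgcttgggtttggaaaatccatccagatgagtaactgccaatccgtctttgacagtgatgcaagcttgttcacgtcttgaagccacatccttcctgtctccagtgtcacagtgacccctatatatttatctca
Casp1, chr9:5298267-5298516, plus strand: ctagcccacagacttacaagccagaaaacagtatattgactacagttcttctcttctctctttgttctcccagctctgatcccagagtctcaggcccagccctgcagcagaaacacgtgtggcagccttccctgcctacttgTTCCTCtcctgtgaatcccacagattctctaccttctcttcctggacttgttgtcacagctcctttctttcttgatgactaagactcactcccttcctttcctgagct
The Il1b window held the TATAAA motif, present in 12.4% of the 32851 mouse promoters in the table, and none of the other motifs. The Il1rn window, which runs into the short Il1rn locus, held an AP-1 motif, present in 6.7% of promoters. The Nlrp3 window held a kappaB site, present in 7.3% of promoters, and the Casp1 window held a PU.1 motif, present in 23.3%. These matches describe letters in the windows and are not measured binding. No motif of the 5 was found at the other 2 listed Il1rn starts, and a second listed Nlrp3 start held 3 PU.1 motifs.

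Wound cells were compared with marrow cells within each genotype. Of the 9 measured members, 7 were higher in the wound in both genotypes and 2 were lower. On the log2(FPKM + 1) scale the rise was largest for Il1b, Il1rn and Nlrp3, between 13.0-fold and 28.0-fold in mean FPKM, while the inflammasome genes Casp1 and Pycard fell. Il1r1 rose 12.9-fold in nondiabetic and 20.6-fold in diabetic mice, from a level under 1 FPKM. With a pseudocount of 0.1 its log2 difference in diabetic mice (4.07) exceeded those of Il1b (3.95) and Nlrp3 (3.69). In nondiabetic mice 7 members passed the threshold upward and 2 downward (limma, adjusted p under 0.05), against 32.1% of all tested names called higher and 53.1% called lower. In diabetic mice the counts were also 7 and 2, against 37.1% called higher and 47.1% called lower. The median log2 difference over the members was 2.24 in nondiabetic and 1.75 in diabetic mice, and over all tested names it was −0.38 and −0.18. Scaling by median ratios moved the latter to 0.07 in both genotypes and the called names from 4317 higher and 7152 lower to 5826 and 5293 in nondiabetic mice, and from 4996 and 6336 to 5918 and 5350 in diabetic mice. All 9 members kept their direction and their call under it. Differences are on the log2(FPKM + 1) scale and folds are ratios of mean FPKM.

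**Figure D1:**
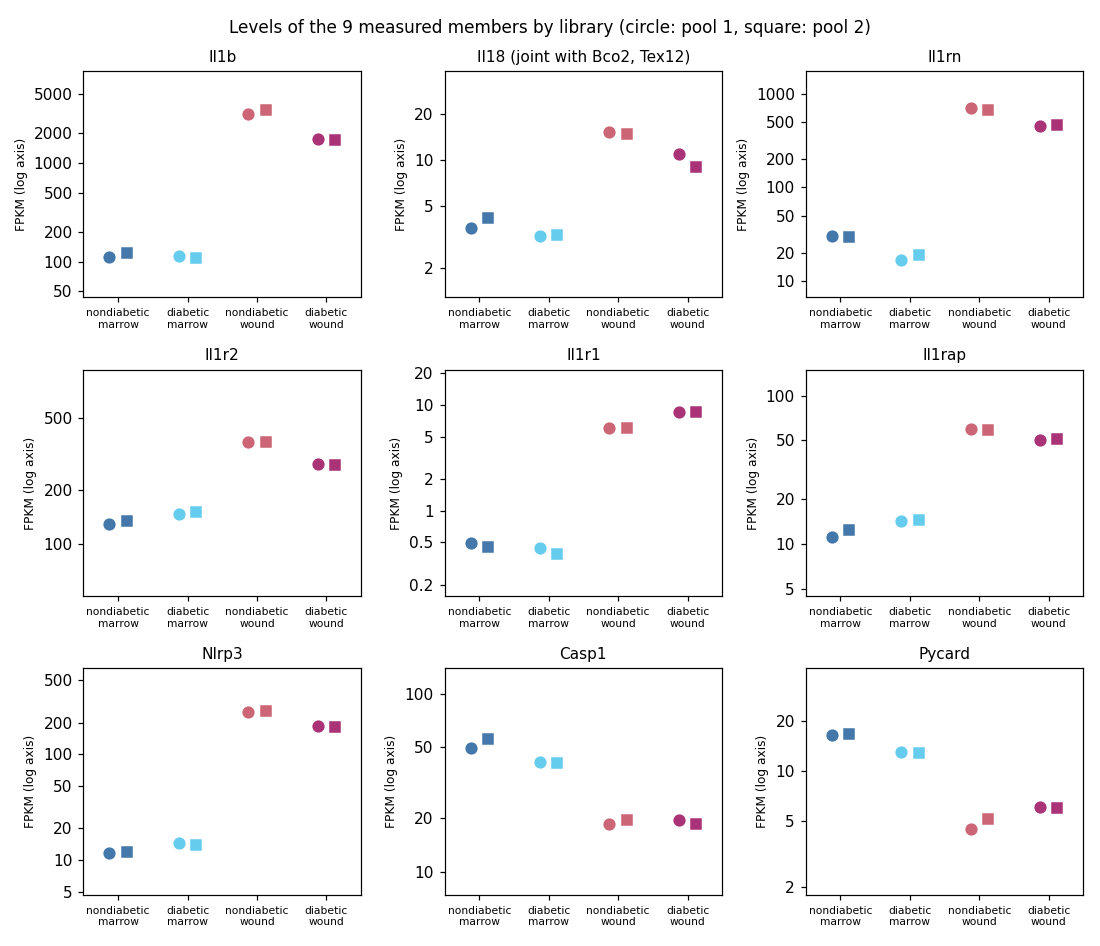
Level of each of the 9 measured members in each of the 8 libraries, as FPKM on a log axis, for the 4 groups; each point is 1 library (circle, pool 1; square, pool 2) and no mean is drawn. Il1b, Il18, Il1rn, Il1r2, Il1r1, Il1rap and Nlrp3 lie higher in all 4 wound libraries than in all 4 marrow libraries, and Casp1 and Pycard lie lower.

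Il1b, the gene of the main interleukin 1 of myeloid cells, was at 110.9 and 122 FPKM in HBM, 114 and 109 in DBM, 3120 and 3419 in HW, and 1732 and 1703 in DW. All wound libraries lay far above all marrow libraries, and the diabetic wound libraries lay below the nondiabetic ones. The wound level was 28.0-fold the marrow level in nondiabetic mice (log2 difference 4.80, SE 0.080, limma adjusted p = 8.59e-08) and 15.5-fold in diabetic mice (3.94, adjusted p = 1.54e-07). The antisense gene Gm14047 stood at 4.17 to 4.34 FPKM in HBM, 8.69 to 9.86 in DBM, 53.0 to 54.3 in HW and 31.1 to 33.1 in DW. It was therefore below Il1b in every library, and like Il1b it was lower in both DW libraries than in both HW libraries. Unlike Il1b, which did not pass between the marrow groups, Gm14047 was 2.18-fold higher in DBM than in HBM (log2 difference 0.97, limma adjusted p = 2.56e-04).

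The joint locus holding Il18, whose product drives interferon gamma release from lymphocytes, was much lower, at 3.62 and 4.18 FPKM in HBM, 3.20 and 3.25 in DBM, 15.2 and 14.8 in HW, and 10.9 and 8.98 in DW. It was 3.85-fold higher in nondiabetic wounds than in marrow (log2 difference 1.71, SE 0.097) and 3.09-fold higher in diabetic wounds (1.37). The share of the 3 genes in this value is not known.

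Among the inhibitors, Il1rn was at 30.0 and 29.5 FPKM in HBM, 16.7 and 18.8 in DBM, 710.2 and 669 in HW, and 459 and 466 in DW. No 2 groups overlapped. Wound exceeded marrow by 23.2-fold in nondiabetic mice (log2 difference 4.49, SE 0.063, limma adjusted p = 5.42e-08) and by 26.1-fold in diabetic mice (4.63, adjusted p = 4.54e-08).

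The decoy receptor gene Il1r2 was the highest member in marrow, at 129 and 135 FPKM in HBM and 147 and 151 in DBM, and reached 368 and 369 in HW and 278 and 275 in DW. Its wound to marrow fold was 2.80 in nondiabetic mice (log2 difference 1.48, SE 0.043) and 1.85 in diabetic mice (0.88). It rose far less in fold than Il1b and Il1rn, and in the wound it was no longer the highest member.

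The signalling receptor gene Il1r1 was the lowest member in marrow, at 0.491 and 0.451 FPKM in HBM and 0.448 and 0.387 in DBM, and stood at 6.02 and 6.10 in HW and 8.68 and 8.52 in DW. The ratio of mean FPKM was 12.9 in nondiabetic and 20.6 in diabetic mice, with log2(FPKM + 1) differences of 2.26 and 2.76 (SE 0.046), which understate the change of so low a gene. Il1rap was at 11.1 and 12.4 FPKM in HBM, 14.2 and 14.4 in DBM, 60.0 and 58.5 in HW, and 50.0 and 51.1 in DW, a wound to marrow fold of 5.03 in nondiabetic and 3.53 in diabetic mice. Both receptor chain genes were higher in every wound library than in any marrow library. Beside these, all the marker sums given above except that of the neutrophil markers rose with the wound. The endothelial marker sum rose too, from 9.99 to 14.5 in marrow to 40.3 to 41.3 in HW and 60.1 to 60.6 in DW. The part of these cells in the receptor values was not tested.

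The inflammasome genes split. Nlrp3, the sensor, was at 11.7 and 12.1 FPKM in HBM, 14.4 and 14.1 in DBM, 254 and 260 in HW, and 187 and 183 in DW, so it was 21.6-fold higher in nondiabetic wounds than marrow (log2 difference 4.32, SE 0.034, limma adjusted p = 2.09e-08) and 13.0-fold higher in diabetic wounds (3.61, adjusted p = 2.08e-08). Casp1, the protease, was at 49.4 and 55.6 FPKM in HBM, 41.4 and 41.0 in DBM, 18.6 and 19.6 in HW, and 19.5 and 18.5 in DW. Casp1 was thus 2.75-fold lower in nondiabetic wounds than marrow (log2 difference −1.41, SE 0.064) and 2.17-fold lower in diabetic wounds (−1.08).

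Pycard, the gene of the adaptor ASC, was at 16.5 and 16.6 FPKM in HBM, 13.0 and 12.8 in DBM, 4.45 and 5.14 in HW, and 6.07 and 6.01 in DW. It was 3.45-fold lower in nondiabetic wounds than marrow (log2 difference −1.60, SE 0.060) and 2.13-fold lower in diabetic wounds (−0.98). The sensor therefore rose while the adaptor and the protease fell in the same libraries, and the summed neutrophil markers also fell from marrow to wound. That sum leaves out markers with a failed estimate, S100a8 and S100a9 among them, and most of its marrow value was Camp. It therefore does not give the wound level of neutrophil RNA. Its part in these differences was not tested.

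Within a library, FPKM can be compared between genes because it is per length, with the reservation for the short Il1rn and Il1rap loci and the joint Il18 locus. In HBM the order of mean levels was Il1r2, Il1b, Casp1, Il1rn, Pycard, Nlrp3, Il1rap, Il18 and Il1r1, and Nlrp3 and Il1rap overlapped. In DBM it was Il1r2, Il1b, Casp1, Il1rn, Il1rap, Nlrp3, Pycard, Il18 and Il1r1, and Il1rap and Nlrp3 again overlapped. In HW it was Il1b, Il1rn, Il1r2, Nlrp3, Il1rap, Casp1, Il18, Il1r1 and Pycard, and the DW order was the same, with no neighbours overlapping in either wound group.

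Diabetic and nondiabetic wounds were then compared. Of the 9 measured members, 6 were lower in the diabetic wound (Il1b, Il18 in its joint locus, Il1rn, Il1r2, Il1rap and Nlrp3), 2 were higher (Il1r1 and Pycard), and Casp1 did not pass the test. Il1b had the largest difference of the 9, 1.90-fold lower in the diabetic wound (log2 difference −0.93, SE 0.080, limma adjusted p = 4.18e-04). Both the ligand and its inhibitors were thus lower in DW. Of all tested names, 31.0% were called higher and 20.7% lower in this comparison, and the median over all names was 0.07 against −0.41 over the members. After median-ratio scaling the called names were 3252 higher and 3700 lower, against 4170 and 2789 without it, and the calls on all 9 members stood.

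Il1rn was 1.49-fold lower in the diabetic wound (log2 difference −0.58, adjusted p = 9.86e-04) and Il1r2 1.33-fold lower (−0.41, adjusted p = 7.96e-04), both by limma. The joint Il18 locus was 1.51-fold lower (−0.55, adjusted p = 0.00545). Nlrp3 was 1.39-fold lower (−0.47, adjusted p = 2.32e-04), and Il1rap 1.17-fold lower (−0.22, adjusted p = 0.0156). The wound groups did not overlap in 8 of the 9 members, near the 77.8% of all tested names without overlap, and the exception was Casp1 (−0.01, SE 0.064, adjusted p = 0.91).

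Il1r1 went the other way, 1.42-fold higher in the diabetic wound (log2 difference 0.44, limma adjusted p = 8.10e-04), and so did Pycard, 1.26-fold higher (0.28, adjusted p = 0.0105). The Pycard call was lost when the fit used the wound groups alone (adjusted p = 0.0552) or left out the first DW pool (0.0534). The Il1rap call was lost without the first HW pool (adjusted p = 0.0729), the first DW pool (0.0764) or the second DW pool (0.0542). Markers are set beside the 31.0% of all tested names called higher and 20.7% called lower. All 5 tested neutrophil markers (median log2 difference −0.50) and all 5 dendritic cell markers were called lower in DW. Of 10 keratinocyte markers 9 were called higher (90.0%), and of 6 endothelial markers 3 (50.0%). Of 7 monocyte and macrophage markers 4 were called higher and 1 lower (57.1% and 14.3%), and of 6 fibroblast markers 1 and 2 (16.7% and 33.3%). Their part in the member differences was not tested.

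In the marrow, the members divided evenly. Il1r2, Il1rap and Nlrp3 were higher in diabetic marrow, Il1rn, Casp1 and Pycard were lower, and Il1b, the joint Il18 locus and Il1r1 did not pass the test. Of all tested names, 13.1% were called higher and 31.7% lower, which is 1767 and 4263 names, and after median-ratio scaling 2772 and 2510. Il1rn had the largest difference, 1.68-fold lower in DBM (log2 difference −0.72, SE 0.063, limma adjusted p = 6.40e-04). The marrow groups overlapped in Il1b, which did not pass (−0.07, SE 0.080, adjusted p = 0.54). Of 7 monocyte and macrophage markers 5 were called higher and 2 lower in DBM (71.4% and 28.6%, median log2 difference 0.67). Of 6 endothelial markers 4 were called lower (66.7%). Of 5 neutrophil markers 2 were called lower (40.0%, near the 31.7% of all names). Of 10 keratinocyte and of 6 fibroblast markers 1 each was called lower. Of 5 dendritic cell markers 1 was called higher and 1 lower. Their part in the marrow differences was not tested.

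Casp1 was 1.27-fold lower (log2 difference −0.34, limma adjusted p = 0.00873) and Pycard 1.28-fold lower (−0.34, adjusted p = 0.0069) in diabetic marrow. Nlrp3 was 1.20-fold higher (0.24, adjusted p = 0.00317), Il1rap 1.22-fold higher (0.27, adjusted p = 0.0103) and Il1r2 1.13-fold higher (0.18, adjusted p = 0.0192). The calls on Il1r2 and Il1rap did not hold in a fit of the marrow groups alone (adjusted p = 0.0506 and 0.0651). The Il1r2 call was also lost without the first HBM pool (adjusted p = 0.0735), the first DBM pool (0.0596) or the second DBM pool (0.0907), and the Il1rap call without the second DBM pool (0.051).

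Whether diabetes went with a different change in wound than in marrow was tested as the difference of both diabetes effects. It passed for 7 of the 9 measured members, 3 upward (Il1r1, Casp1 and Pycard) and 4 downward (Il1b, Il1r2, Il1rap and Nlrp3), against 37.8% of all tested names upward and 18.4% downward. The largest was Il1b (log2 −0.86, SE 0.113, limma adjusted p = 0.00181), which was lower in the diabetic wound and did not pass between the marrow groups. Nlrp3 (−0.71, adjusted p = 2.39e-04), Il1r2 (−0.59, adjusted p = 7.79e-04) and Il1rap (−0.49, adjusted p = 0.00303) were higher in diabetic marrow and lower in the diabetic wound.

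Pycard was the reverse, lower in diabetic marrow and higher in the diabetic wound (log2 0.62, limma adjusted p = 0.00202), and Il1r1 was higher in the diabetic wound (0.50, adjusted p = 0.00179). Il1rn did not pass (0.14, SE 0.090, adjusted p = 0.221): it was lower in diabetic mice in both tissues. The joint Il18 locus (−0.34, adjusted p = 0.08) missed the threshold, and it passed with a pseudocount of 5 (0.0329), under quantile scaling (0.0192), under median-ratio scaling (0.0134) and without the first DW pool (0.0226). The Casp1 difference (0.33, adjusted p = 0.0254) was lost under quantile scaling (0.16, adjusted p = 0.149) and under median-ratio scaling (0.08, adjusted p = 0.421), which also turned the split of all called names from 5087 upward and 2481 downward to 3293 upward and 3777 downward. It was also lost without either DBM pool, the first HW pool or the first DW pool (adjusted p 0.065 to 0.0794).

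**Figure D2:**
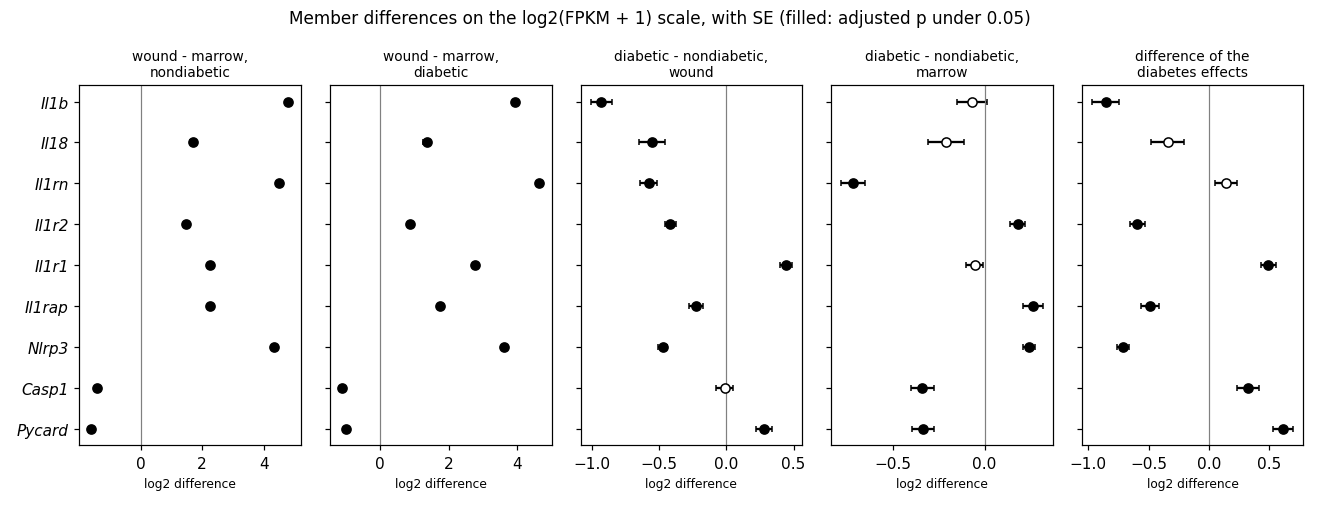
Log2(FPKM + 1) difference of each of the 9 measured members (points) with its standard error (bars) in the 5 comparisons; filled points passed adjusted p under 0.05 and open points did not. Il1b, Il1rn and Nlrp3 lie farthest right in both comparisons of wound with marrow. In the wound comparison of genotypes 6 filled points lie left of 0, and the open point of Casp1 lies just left of it.

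Ligands were set against inhibitors and the decoy receptor by the ratio of their FPKM in each library. With 2 libraries against 2, an exact two-sided permutation test cannot go below p = 0.333, so these ratios are a description. Of 20 comparisons of 5 ratios, 19 had no overlap between groups (exact p = 0.333, 0.351 after Benjamini-Hochberg adjustment over the 20). Levels of most tested names did not overlap either, 91.9% and 92.5% of names between wound and marrow in nondiabetic and diabetic mice, 77.8% between the wound groups and 72.3% between the marrow groups, so that count is no result about the ratios. The ratios with Il1rn rest on its short locus, which holds no exonic bases of the other coding transcripts. Neither their absolute size nor their order between groups is thus given for Il1rn RNA as a whole.

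Il1b to Il1rn was 3.70 and 4.15 in HBM, 6.82 and 5.78 in DBM, 4.39 and 5.11 in HW, and 3.77 and 3.66 in DW. The ratio was highest in diabetic marrow, where Il1rn was low, and its order between genotypes differed by tissue: the log2 ratio was 0.68 higher in DBM than in HBM and fell by 0.35 from HW to DW. From marrow to wound it rose by 0.27 in nondiabetic mice and fell by 0.76 in diabetic mice.

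Il1b to Il1r2 was 0.862 and 0.910 in HBM, 0.771 and 0.718 in DBM, 8.47 and 9.28 in HW, and 6.24 and 6.20 in DW. Ligand RNA was thus below decoy receptor RNA in all 4 marrow libraries and above it in all 4 wound libraries, by less in diabetic wounds. Il1rn to Il1r2 was 0.233 and 0.219 in HBM, 0.113 and 0.124 in DBM, 1.93 and 1.82 in HW, and 1.65 and 1.70 in DW. The level of the short Il1rn locus was thus below that of Il1r2 in all 4 marrow libraries and above it in all 4 wound libraries. Whether this holds for all Il1rn RNA cannot be read from that locus.

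Il1r1 to Il1r2, the signalling receptor against the decoy, was 0.00382 and 0.00335 in HBM, 0.00304 and 0.00256 in DBM, 0.0164 and 0.0165 in HW, and 0.0312 and 0.0310 in DW. Decoy RNA exceeded that of the signalling receptor in every library, and by least in diabetic wounds. The joint locus of Il18 against that of Il18bp, which encodes a soluble interleukin 18 inhibitor and shares its row with Rnf121, was 0.534 and 0.699 in HBM, 0.506 and 0.535 in DBM, 3.22 and 2.92 in HW, and 2.19 and 2.08 in DW. The marrow groups overlapped in this ratio (exact permutation p = 0.667).

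**Figure D3:**
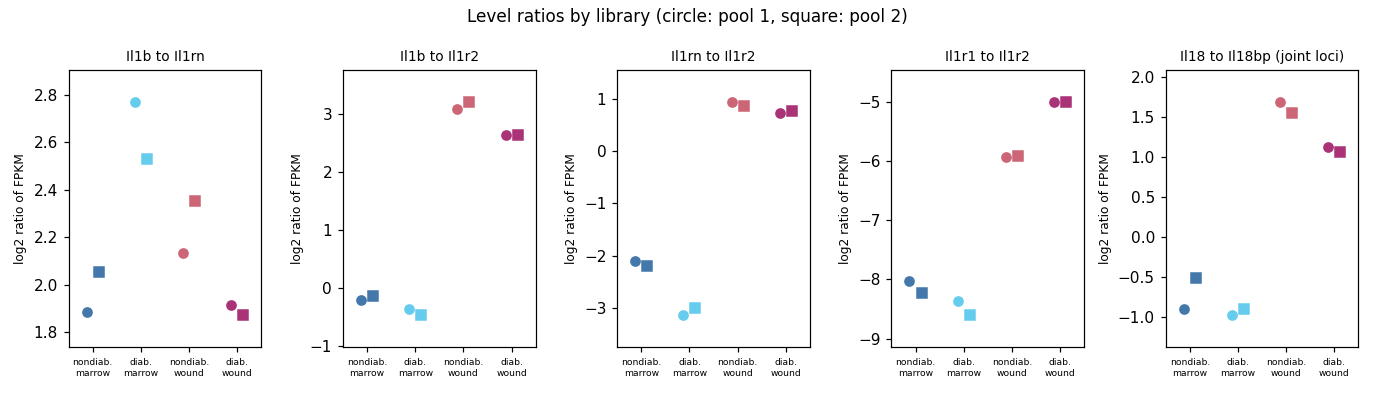
Log2 of the FPKM ratio of 5 gene pairs in each of the 8 libraries, for the 4 groups; each point is 1 library (circle, pool 1; square, pool 2). Il1b to Il1rn is highest in diabetic marrow, and the other 4 ratios are higher in all wound libraries than in all marrow libraries.

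The ligand gene Il1a had no row, but its annotated position, chr2:129125346-129135708 on the minus strand, lies inside the locus chr2:129093917-129135805 of rows named Ckap2l. Ckap2l, the neighbouring gene, encodes a mitotic spindle protein. The main row of that locus was at 8.87 and 9.30 FPKM in HBM, 5.80 and 6.21 in DBM, 116 and 113 in HW, and 211 and 208 in DW. It was 12.6-fold higher in nondiabetic wounds than in marrow (log2 difference 3.52, SE 0.043, limma adjusted p = 3.79e-08) and 1.84-fold higher in diabetic than nondiabetic wounds (0.87, adjusted p = 7.26e-05), opposite in direction to Il1b. Other rows share these coordinates. Gm14023 was at 0.973 to 1.76 FPKM in marrow, 11.8 to 11.9 in HW and 9.08 to 9.56 in DW, so it was lower in diabetic than nondiabetic wounds. The other Ckap2l rows lay between 0.664 and 2.04 FPKM in all libraries. The values of the main row cannot be assigned to Il1a or to Ckap2l from the table, so no ratio with Il1a was computed.

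Beyond the members, 58 other genes of the family, its signalling and the inflammasome were listed by role, and 49 names could be tested. In nondiabetic mice 21 were higher and 23 lower in the wound than in marrow, and in diabetic mice 22 and 25. These are 42.9% and 46.9% of the list in nondiabetic mice, where 32.1% and 53.1% of all tested names were called, and 44.9% and 51.0% in diabetic mice, against 37.1% and 47.1%. In diabetic against nondiabetic wounds 9 were higher and 19 lower (18.4% and 38.8%, against 31.0% and 20.7% of all names), and in marrow 12 higher and 18 lower (24.5% and 36.7%, against 13.1% and 31.7%). The medians were −0.07, −0.35, −0.12 and −0.05 in these comparisons. For the difference of the diabetes effects, 16 were called upward and 20 downward (32.7% and 40.8%, against 37.8% and 18.4%). Nothing particular to the list is read from these shares, nor from the counts by role that follow. Every difference described below as a rise, a fall, higher or lower passed the test (limma).

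Of the 4 other family ligand names tested, 3 were higher in the wound in both genotypes and none lower. Il1f9, now called Il36g, an epithelial and myeloid interleukin 36, was at 312 ± 15.6 FPKM (SD, n = 2) in HBM, 247 ± 10.5 in DBM, 724 ± 30.5 in HW and 329 ± 2.07 in DW. It was thus lower in diabetic than nondiabetic wounds, with a log2 difference of −1.14 (limma), the lowest among the ligands. Il33, an alarmin of barrier and stromal cells, averaged 0.0118 FPKM in HBM, was listed at 0 in DBM, and averaged 5.00 in HW and 5.40 in DW. Il1f6, another interleukin 36 gene, was listed at 0 in all 4 marrow libraries and averaged 4.30 in HW and 4.55 in DW.

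The other inhibitors did not move together. Irak3, which restrains signalling below the receptor, averaged 24.3 FPKM in HBM, 22.0 in DBM, 42.5 in HW and 33.3 in DW and was higher in both wound groups than in marrow. Sigirr, a single-domain inhibitory receptor, averaged 2.30 in HBM, 3.61 in DBM, 1.02 in HW and 0.989 in DW and was lower in the wound. Among other receptors the interleukin 18 receptor chains fell from marrow to wound: Il18rap averaged 98.9 FPKM in HBM, 130.3 in DBM, 29.9 in HW and 25.9 in DW, and Il18r1 averaged 11.6, 10.3, 2.64 and 1.69 in the same order. The receptors of interleukin 36 and interleukin 33, Il1rl2 and Il1rl1, rose, and Il1rl2 averaged 6.17 FPKM in HW and 11.1 in DW.

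Of 13 signalling adaptors and kinases tested, 4 were higher and 8 lower in nondiabetic wounds than in marrow (30.8% and 61.5%, near the 32.1% and 53.1% of all names), and 3 and 10 in diabetic mice (23.1% and 76.9%, against 37.1% and 47.1%). Mapk14, the p38 alpha kinase, averaged 212 FPKM in HBM, 224 in DBM, 18.3 in HW and 15.9 in DW. Its substrate Mapkapk2 went up, from 22.5 and 18.1 FPKM in HBM and DBM to 105.7 in HW and 72.0 in DW, and so did the kinase Map3k8, from 7.08 and 10.3 to 85.9 and 71.9. Among 7 other inflammasome sensor names, 4 were higher and 2 lower in nondiabetic wounds. Mefv, which encodes pyrin, averaged 13.6 FPKM in HBM, 8.14 in DBM, 125 in HW and 55.2 in DW, and its log2 difference between diabetic and nondiabetic wounds was −1.17. Nlrp12 averaged 31.5, 40.0, 9.27 and 4.90 FPKM in HBM, DBM, HW and DW, and was lower in the wound in both genotypes.

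Of 12 inflammasome regulators and effectors, 6 were higher and 5 lower in nondiabetic wounds than in marrow. Casp4, the caspase that senses cytosolic lipopolysaccharide and a neighbour of Casp1, averaged 38.4 FPKM in HBM, 31.0 in DBM, 185 in HW and 126 in DW, opposite to Casp1. Gsdmd, which encodes the pore-forming target of inflammatory caspases, averaged 49.0 FPKM in HBM, 54.8 in DBM, 19.7 in HW and 10.5 in DW, and fell like Casp1. Ninj1, whose product ruptures the membrane of dying cells, averaged 22.6, 19.3, 278 and 282 FPKM in the same order. Neutrophil proteases can also process interleukin 1, and of 5 genes for such proteases or their inhibitors 4 were lower in nondiabetic wounds. Ctsg averaged 69.8 FPKM in HBM, 49.5 in DBM, 0.192 in HW and 2.12 in DW. The inhibitor gene Serpinb1a averaged 380 in HBM and 9.71 in HW. Ctsc, the protease that activates the granule proteases, rose from 75.7 in HBM to 301 in HW.

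**Figure D4:**
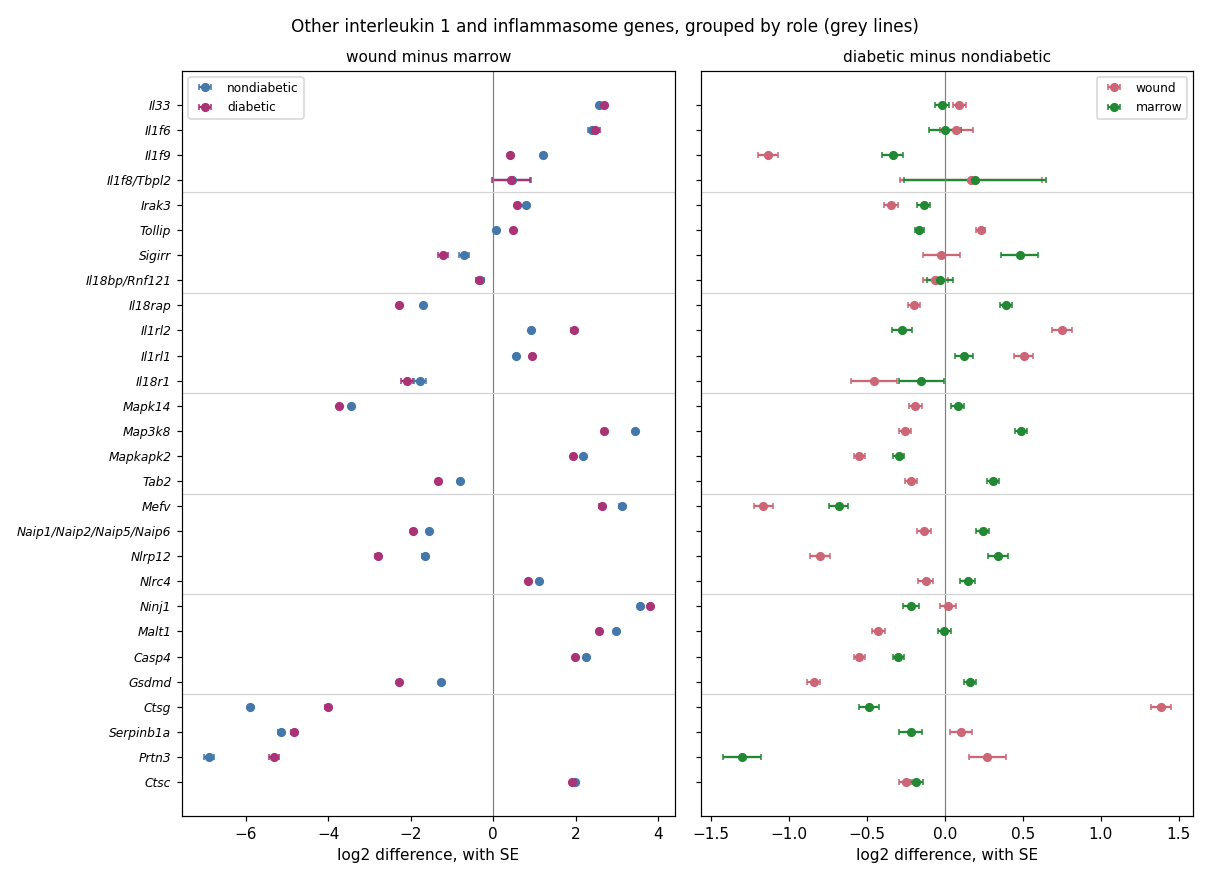
Log2(FPKM + 1) differences with standard errors (bars) of 28 other genes of the pathway, grouped by role between grey lines; left, wound minus marrow in nondiabetic and diabetic mice; right, diabetic minus nondiabetic in wound and marrow. The protease genes Ctsg and Prtn3 and the protease inhibitor gene Serpinb1a lie farthest left in the wound comparison. Mefv and Il1f9 lie farthest left among wounds in the genotype comparison.

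The gene names whose profile over the 8 libraries lay closest to each of 3 members were ranked by Euclidean distance between centred log2(FPKM + 1) values among 5468 names. For Il1b these were Pgf (0.312), Col6a1 (0.472), Adamts4 (0.524), Cd40 (0.538) and Slc39a14 (0.615). For Il1rn they were Arl5c (0.55), Mreg (0.552), Cd40 (0.578), Bgn (0.608) and Sdc1 (0.649), and for Il1r2 Mif4gd (0.139), Arih2 (0.219), Dennd4c (0.226), Sik3 (0.229) and Samsn1 (0.239). Ranked by Pearson correlation, none of the 5 nearest names was shared for Il1b or Il1rn and 1 for Il1r2, so these lists rest on the measure of likeness. They rest on the added 1 as well, which flattens differences between levels near 0. Pgf averaged 0.0202 FPKM in HBM, 0.00811 in DBM, 23.3 in HW and 13.3 in DW, a far larger fold than that of Il1b. Col6a1, Adamts4, Slc39a14, Bgn and Sdc1 also averaged under 1 FPKM in both marrow groups.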

How the data were processed

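RNA-seq values were taken from the authors' deposited table of FPKM per assembled locus, with a status for every estimate. It was made with TopHat and Cufflinks on mm9, per the submitters' processing notes; versions and settings are not given in the sources used here. FPKM carry no read number, so depth is unknown and no counting interval is given. The table holds 39330 loci, 28408 of them named. For 4927 names with more than 1 locus, the locus of highest mean level was used. Left out were 521 names with a failed estimate. Names with at least 1 FPKM in 2 of 8 libraries were tested, 13457 in all. Differences on log2(FPKM + 1) were tested with limma 3.58.1 in R 4.3.3 (trended prior, 4 group means, 4 residual degrees of freedom, two-sided, Benjamini-Hochberg over all tested names, threshold 0.05). The procedure was also run on simulated data with independent normal noise and few moved genes. That run cannot vouch for the calls here, where many names differed between groups. Each library is a pool of 5 mice, so p-values measure the spread between 2 pools per group and not between mice. Libraries were grouped by their labels, and pool numbers are not stated to pair marrow with wound. Named were all members and up to 4 genes per role of the wider list with the smallest p in any comparison. Promoters were taken from RefSeq (GRCm38.p6). Members and lists were chosen with earlier results of these data known. Alternatives covered the pseudocount, the filter, the scaling, the groups in the fit, the replicate block and each library left out.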

Additional observations from a re-analysis of the deposited data

Results flagged for a closer look

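In 7 members the diabetes effect differed between wound and marrow by the test of that difference (limma, 2 pools per group). The difference on the log2 scale, wound minus marrow, was −0.86 for Il1b, −0.71 for Nlrp3, −0.59 for Il1r2 and −0.49 for Il1rap, whose diabetes effect was lower in the wound. It was 0.62 for Pycard, 0.50 for Il1r1 and 0.33 for Casp1, whose diabetes effect was higher in the wound. The Casp1 value passed neither under quantile nor under median-ratio scaling.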

How the results depend on the processing

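For 45 tests (9 measured members in 5 comparisons), 972 values were recomputed over 22 alternative settings. No called difference changed sign, and none passed with the opposite sign. Of the values, 951 kept their side of the threshold, 17 lost it and 4 gained it, and the 21 changes fell in 6 tests, all named with their values above. Differences near 0 that did not pass could change sign. With 1 library left out, Casp1 between the wound groups ran from −0.048 to 0.027, and Il1b between the marrow groups from −0.14 to 0.0022. The number of members called higher in diabetic wounds went from 2 to 1, and in diabetic marrow from 3 to 1, when only the groups compared were fitted, which leaves fewer residual degrees of freedom. Leaving out 1 library at a time gave 1 to 2 and 1 to 3 for these counts. With the replicate block on pool number, 7 members were higher and 2 lower in nondiabetic wounds than in marrow, as without it, and no member call changed. Same-numbered pools did not deviate together throughout (correlations −0.176 to 0.22), so the block rests on a shared number only. Over all tested names, a filter at 5 FPKM left 2366 and 2842 names called higher in the nondiabetic and diabetic wound comparisons with marrow. In marrow, names called lower in diabetic mice were 2685 under quantile scaling, 2510 under median-ratio scaling (with 2772 higher) and 2806 without the first DBM pool. Median-ratio scaling gave 3293 upward and 3777 downward for the difference of the diabetes effects. Of 120 recomputed ratios none reversed. Depth is unknown, and levels under 1 FPKM, such as Il1r1 in marrow, are the least certain.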
